A study of Mus musculus with 12 samples.

Results

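Fatty acid oxidation and ketogenesis in the colon are represented here by 9 genes, Ppara, Pparg, Cpt1a, Acads, Acaa2, Acadm, Pdk4, Angptl4 and Slc16a1, which were taken by gene symbol from a count table of 54532 genes. The colonic epithelium is known for living on butyrate, a short fatty acid that bacteria make from fibre. Butyrate enters the cell through monocarboxylate transporters, is broken down by beta-oxidation in the mitochondria, and yields acetyl-CoA for respiration or for ketone bodies. Longer fatty acids need a carnitine gate at the outer mitochondrial membrane, and the nuclear receptors of the PPAR family, which are activated by fatty acids, switch on many genes of this route.

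The samples were colon pieces of wild-type (WT) male C57BL/6J mice that were 5 weeks old, with 3 libraries in each of 4 groups. The control group drank plain water and the model group drank 3% DSS (dextran sodium sulfate), which damages the lining of the colon and causes acute colitis. The Rhy group received DSS and rhynchophylline, a plant alkaloid, and the DXM group received DSS and dexamethasone, a glucocorticoid, at 4 mg/kg. Rhynchophylline was given at 2, 4 or 8 mg/kg in the study, and the sources used here do not say which of these doses the sequenced mice had. DSS was therefore shared by the model, Rhy and DXM groups, and no group received a drug without DSS.

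The authors counted the reads of each gene without normalization, and the libraries held 14346478 to 17749716 counts. The filter on low counts kept 16904 genes, all 9 of these among them. Levels are given as CPM, the count scaled to library size with TMM factors, and differences come from edgeR's quasi-likelihood test with Benjamini-Hochberg adjustment over these 16904 genes. The labels do not say whether each library came from a separate mouse, so p-values measure only the spread between these libraries. Libraries model 1 and model 2 were nearly the same, with a common dispersion of 0.00201 against 0.0604 to 0.351 in the other 65 pairs, so results on the model group are also given with their counts summed into 1 library where this changed the number of the 9 genes called. The colon epithelial markers Epcam, Cdh1, Krt8, Krt18, Vil1, Cdx1 and Cdx2 were present and together reached 8445 to 14227 CPM in each library. Colon pieces hold several cell types, and fewer cells of a type cannot be told apart from less RNA per cell.

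Levels of different genes were compared on the length-scaled FPKM values that the authors also deposited. On that scale the beta-oxidation enzymes Acaa2, with a mean of 115 FPKM over the 12 libraries, and Acads, with 107 FPKM, were the most abundant of the 9. The transporter Slc16a1 followed at 58.2 FPKM, then Cpt1a at 44.8, Acadm at 37.8 and Pparg at 31.6 FPKM. Pdk4 at 6.73, Angptl4 at 2.82 and Ppara at 2.41 FPKM were the least abundant. The spread over libraries ran the other way. In CPM, the highest library exceeded the lowest 88.2-fold for Ppara, 18.3-fold for Pdk4 and 13.1-fold for Angptl4, but 3.79-fold for Slc16a1, 3.22-fold for Acaa2 and 2.63-fold for Acadm.

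PPAR receptors bind DNA with their partner RXR at pairs of a 6-base half-site, AGGTCA. The search used mouse RefSeq promoters (GRCm38.p6) and covered 7 of the 9 genes, Ppara, Pparg, Cpt1a, Acads, Acadm, Pdk4 and Slc16a1. Acaa2 and Angptl4 were not searched. The 7 genes had 9 start sites in all, and the 250 bases before each start were searched on both strands. AGGTCA or its complement TGACCT lay in 4 of the 9 windows, which belong to 3 genes, Pparg, Cpt1a and Acadm, and in 14% of 32851 mouse promoter windows of the same length. The paired form AGGTCANAGGTCA was in 0 of the 9 windows, also when up to 2 mismatches were allowed, and in 0.0335% of all windows as an exact match or 3.24% with up to 2 mismatches. Overlapping matches of the half-site and the paired form were counted under both. Cpt1a and Acadm are shown because they hold a half-site, 94 and 249 bases before the start, and Pdk4 is shown as a classical PPAR-responsive gene whose window held none. The Cpt1a stretch is chr19:3323051-3323284 on the plus strand, the Acadm stretch is chr3:153944644-153944893 on the minus strand and the Pdk4 stretch is chr6:5496310-5496528 on the minus strand, each read 5′ to 3′ with annotated exon bases left off and the half-site in capitals.
Cpt1a: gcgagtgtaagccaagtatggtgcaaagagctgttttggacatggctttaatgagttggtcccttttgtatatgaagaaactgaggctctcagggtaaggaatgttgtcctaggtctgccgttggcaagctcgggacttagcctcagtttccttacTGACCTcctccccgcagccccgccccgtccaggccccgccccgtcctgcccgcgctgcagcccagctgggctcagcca
Acadm: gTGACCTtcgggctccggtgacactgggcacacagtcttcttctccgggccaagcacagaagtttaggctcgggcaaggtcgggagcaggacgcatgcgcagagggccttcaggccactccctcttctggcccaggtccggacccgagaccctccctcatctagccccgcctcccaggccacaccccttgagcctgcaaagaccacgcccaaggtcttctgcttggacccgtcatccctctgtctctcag
Pdk4: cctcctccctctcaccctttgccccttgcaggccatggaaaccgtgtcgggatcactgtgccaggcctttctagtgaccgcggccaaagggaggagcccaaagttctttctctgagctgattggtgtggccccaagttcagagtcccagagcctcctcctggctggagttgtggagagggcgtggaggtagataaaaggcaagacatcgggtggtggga
These letters describe the sequence and were not tested for binding.

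Ppara encodes PPAR alpha, the receptor that drives fatty acid oxidation and ketogenesis in the fasting liver, and lies on chromosome 15 at 85734983 to 85802819 in mm10. Its level was 1.72, 24.8 and 35.7 CPM in control 1 to 3, 7.50, 5.82 and 8.76 CPM in model 1 to 3, 15.6, 1.04 and 3.40 CPM in Rhy 1 to 3, and 3.91, 2.70 and 0.405 CPM in DXM 1 to 3. The control and Rhy libraries thus spanned over an order of magnitude, while every DXM library lay below every model library. DXM 3 held 8 counts of this gene. Pparg encodes PPAR gamma, which is abundant in colonic epithelium and regulates fat storage in fat cells, and lies on chromosome 6 at 115360951 to 115490399. Its level was 80.0, 207 and 134 CPM in the control, 76.5, 77.7 and 140 CPM in the model, 166, 50.0 and 51.7 CPM in the Rhy, and 75.1, 49.8 and 18.8 CPM in the DXM libraries, in the same order. The highest DXM library again lay just below the lowest model library, and the Rhy group held both high and low values.

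Cpt1a encodes the carnitine palmitoyltransferase that admits long-chain fatty acids to the mitochondrion, the rate-limiting step of their oxidation, and lies on chromosome 19 at 3323301 to 3385732. It measured 173, 333 and 338 CPM in the control, 179, 176 and 261 CPM in the model, 337, 115 and 112 CPM in the Rhy, and 148, 104 and 55.6 CPM in the DXM libraries. All 3 DXM libraries lay below all control and all model libraries. The first and last steps of beta-oxidation inside the mitochondrion are represented by 3 genes. Acadm, on chromosome 3 at 153922357 to 153944632, encodes the medium-chain acyl-CoA dehydrogenase. It measured 126, 217 and 187 CPM in the control, 127, 126 and 177 CPM in the model, 237, 127 and 130 CPM in the Rhy, and 129, 121 and 90.2 CPM in the DXM libraries. Every group overlapped with every other. Acads, on chromosome 5 at 115110299 to 115119346, encodes the short-chain acyl-CoA dehydrogenase that acts on butyryl-CoA. It measured 145, 338 and 332 CPM in the control, 251, 236 and 395 CPM in the model, 457, 170 and 150 CPM in the Rhy, and 191, 181 and 96.3 CPM in the DXM libraries, so the DXM and model groups did not overlap. Acaa2, on chromosome 18 at 74779197 to 74806207, encodes the thiolase of the last step. It measured 124, 199 and 213 CPM in the control, 133, 140 and 289 CPM in the model, 325, 141 and 115 CPM in the Rhy, and 203, 128 and 101 CPM in the DXM libraries, and all groups overlapped.

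Pdk4 encodes a pyruvate dehydrogenase kinase that turns cells from glucose to fat as fuel, is induced by PPARs and by glucocorticoids in several tissues, and lies on chromosome 6 at 5483351 to 5496309. It measured 7.79, 66.5 and 58.1 CPM in the control, 12.0, 11.3 and 47.5 CPM in the model, 53.3, 4.70 and 3.96 CPM in the Rhy, and 9.12, 6.84 and 3.65 CPM in the DXM libraries. Its 12 libraries fell into 4 high ones, at 47.5 CPM or above, and 8 low ones, at 12.0 CPM or below. Angptl4 encodes a secreted inhibitor of lipoprotein lipase, another target shared by PPARs and the glucocorticoid receptor, and lies on chromosome 17 at 33773750 to 33781575. It measured 2.55, 14.6 and 10.4 CPM in the control, 2.76, 4.25 and 31.2 CPM in the model, 20.7, 3.46 and 10.3 CPM in the Rhy, and 6.03, 3.76 and 2.38 CPM in the DXM libraries. Its DXM values spanned those of model 1 and model 2, and model 3 stood above all of these. Slc16a1 encodes MCT1, which carries butyrate, lactate and ketone bodies across the membrane, and lies on chromosome 3 at 104638668 to 104658462. It measured 321, 343 and 297 CPM in the control, 235.2, 250 and 348 CPM in the model, 353, 198 and 252 CPM in the Rhy, and 235.0, 198 and 93.4 CPM in the DXM libraries. It was the steadiest of the 9 within the control group, and its DXM group lay below the control group by a clear gap but met the model group at 235.0 against 235.2 CPM.

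**Figure D1:**
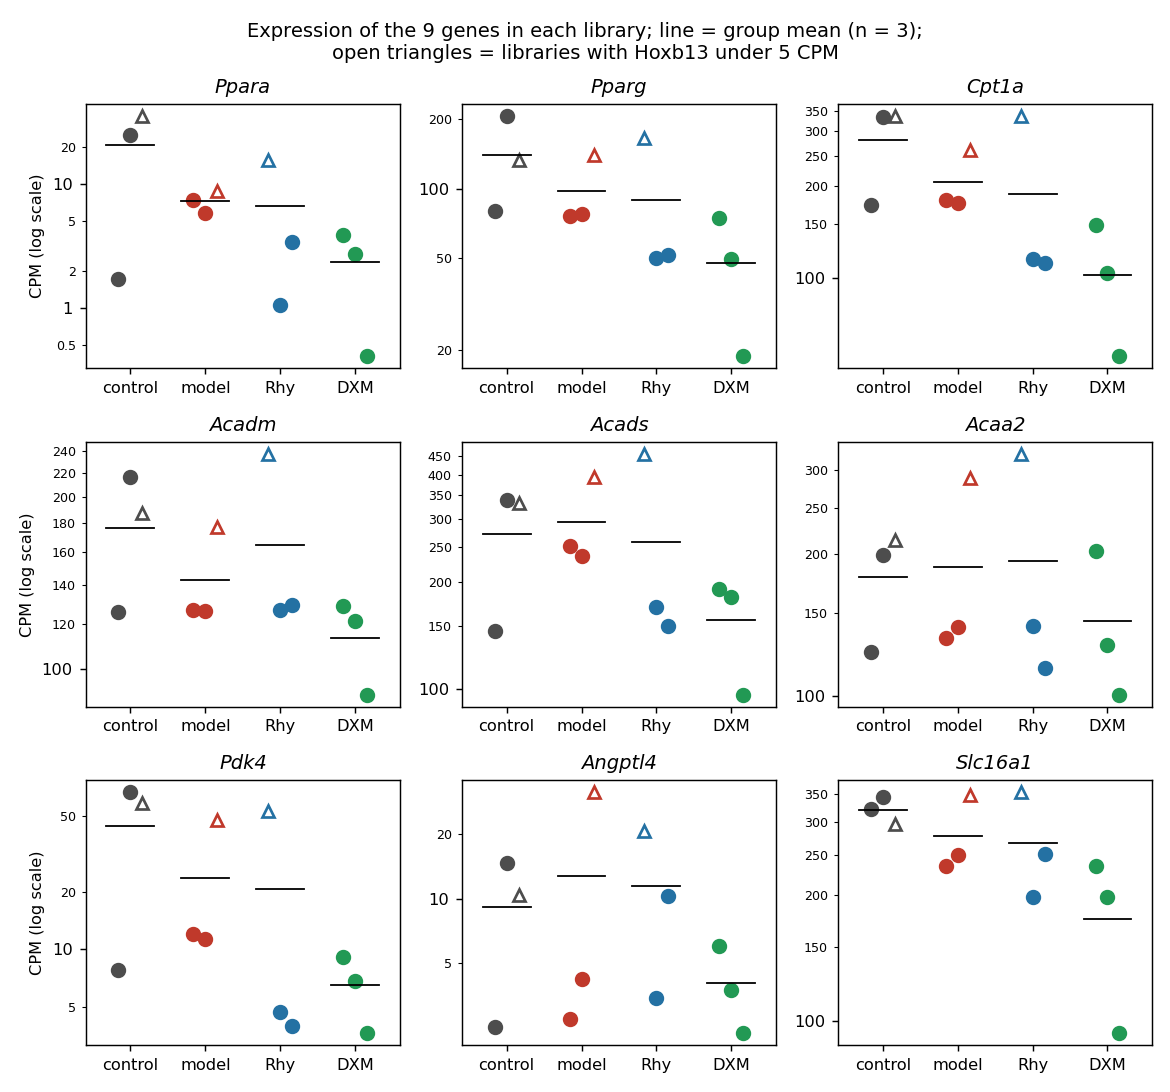
CPM (log scale) of each of the 9 genes in the 12 libraries by group, with points for libraries, a line for the group mean (n = 3), and open triangles for libraries with Hoxb13 under 5 CPM. The Rhy 1 and model 3 triangles sit above the other libraries of their groups in all 9 panels, and DXM 3 is the lowest library in all 9.

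By group mean, DXM was last for 9 of 9 genes. Ppara, Pparg, Cpt1a, Pdk4 and Slc16a1 went from control through model and Rhy to DXM, while Acads and Angptl4 were highest in the model group and Acaa2 in the Rhy group, and Acadm went from control through Rhy and model to DXM. Neighbouring groups in each of these orders overlapped for all 9 genes. For Ppara the group means were 20.7 ± 17.4 CPM in control, 7.36 ± 1.47 in model, 6.67 ± 7.80 in Rhy and 2.34 ± 1.78 CPM in DXM (SD, n = 3), and for Pdk4 they were 44.2 ± 31.8, 23.6 ± 20.7, 20.7 ± 28.3 and 6.54 ± 2.75 CPM.

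The libraries differed within groups in a way that the 9 genes shared. Control 2, control 3, model 3 and Rhy 1 were the 4 highest libraries for 7 of the 9 genes. In Acaa2, DXM 1 took the place of control 2, and in Slc16a1, control 1 took the place of control 3. DXM 3 was the lowest library for 9 of 9. Model 3 was above model 1 and model 2, and Rhy 1 above Rhy 2 and Rhy 3, for 9 of 9. Rhy 1 exceeded the mean of the other Rhy libraries 12.3-fold in Pdk4, 7.02-fold in Ppara, 3.27-fold in Pparg and 1.57-fold in Slc16a1. Model 3 exceeded the mean of the other model libraries 8.91-fold in Angptl4 and 4.08-fold in Pdk4, but 1.31-fold in Ppara. Over the 12 libraries, the 36 pairs of genes correlated with Pearson's r of log2 CPM from 0.659 to 0.982, with a median of 0.864. After each group's mean was taken out, r was 0.597 to 0.984 with a median of 0.876. These correlations share libraries and describe the 12 libraries only.

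**Figure D2:**
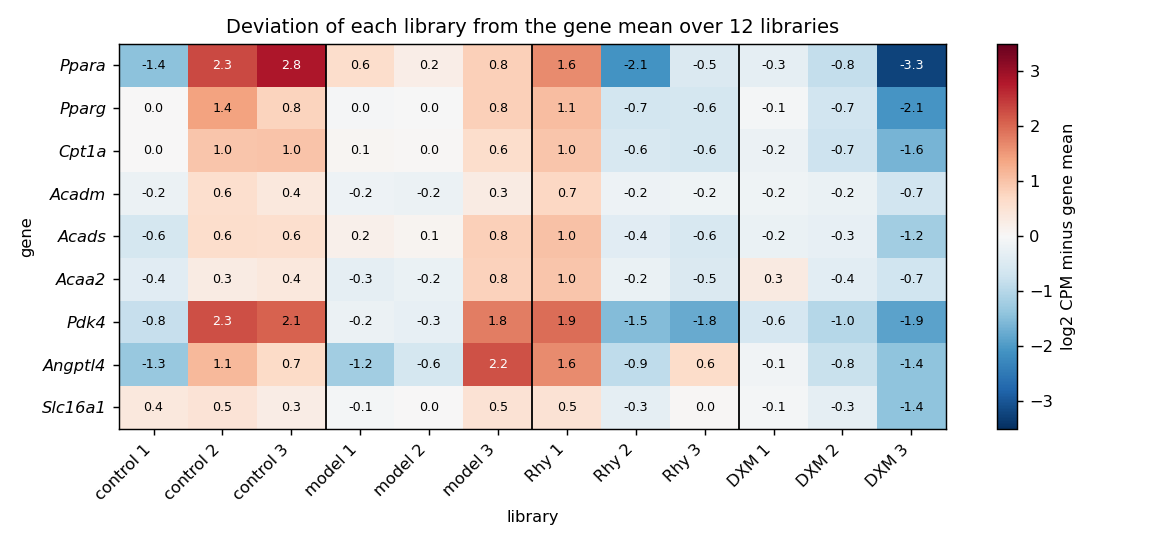
Log2 CPM of the 9 genes (rows) in the 12 libraries (columns), each gene centred on its mean over the libraries. The columns of control 2, control 3, model 3 and Rhy 1 lie above the gene mean for all 9 genes, and DXM 3 lies below it for all 9.

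The shared pattern moved with Hoxb13, a homeobox gene that marks the far end of the colon and is silent nearer its start. Hoxb13 measured 155, 72.0 and 0.165 CPM in the control, 226, 205 and 1.49 CPM in the model, 0, 316 and 230 CPM in the Rhy, and 221, 195 and 236 CPM in the DXM libraries. Control 3, model 3 and Rhy 1 were thus under 5 CPM, 1 library in each of these groups and none in the DXM group. The mean log2 CPM of the 9 genes relative to each gene's own mean was 0.99, 0.97 and 1.17 in these 3 libraries, 1.11 in control 2, and -0.10 to -1.58 in the other 8. Pearson's r of log2 CPM with Hoxb13 over the 12 libraries was negative for 9 of 9 genes, from -0.82 for Acaa2 to -0.53 for Slc16a1. Hoxb13 was not alone in this. The colonocyte marker Car1 had r from 0.703 for Pdk4 to 0.838 for Pparg. The epithelial marker Epcam had r from 0.505 for Angptl4 to 0.821 for Slc16a1. For the smooth muscle marker Myh11, r ran from -0.784 for Slc16a1 to -0.448 for Angptl4. The fat cell marker Adipoq had r from -0.087 for Slc16a1 to 0.482 for Angptl4. Hoxa13, a like gene, did not set model 3 apart, at 25.6 to 29.3 CPM over the model libraries. It was 13.7 to 54.7 CPM in the control, 27.3 to 63.5 CPM in the Rhy and 31.9 to 52.0 CPM in the DXM libraries. Hoxd13 was 5.54 CPM in control 1, though Hoxb13 was 155 CPM there. In control 3, model 3 and Rhy 1, Hoxd13 was 0, 0.0596 and 0.342 CPM. What part the position of the colon piece has in the group differences was not tested, since the labels do not give it, but values with these 3 libraries left out stand beside the comparisons. The model group then consists of model 1 and model 2, which were nearly the same, so these values rest on what amounts to 1 model library.

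**Figure D3:**
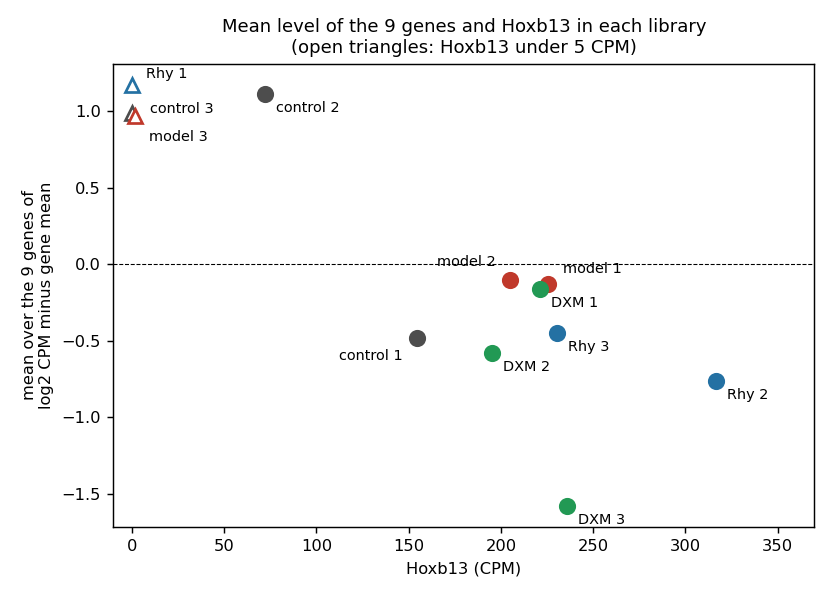
Mean over the 9 genes of log2 CPM minus the gene's mean (vertical) against Hoxb13 in CPM (horizontal), 1 point for each library, coloured by group. The 3 libraries under 5 CPM of Hoxb13 (open triangles) and control 2 lie at 0.97 to 1.17, and the other 8 libraries lie below 0.

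DXM 3, the lowest library for the 9 genes, also stood apart in cell markers. The summed mature colonocyte markers Krt20, Slc26a3, Car1, Car4 and Aqp8 were 2491 CPM in DXM 3, 3500 CPM in DXM 2 and 14838 CPM in DXM 1, against 7792 to 23270 CPM in the other groups. Car1 carried this sum, at 11102, 1170 and 509 CPM in DXM 1 to 3 against 5590 to 9832 CPM in the model group. Slc26a3 went the other way, at 657 to 1162 CPM in the DXM and 335 to 511 CPM in the model libraries, and by fold change of DXM over model 3 of these 5 markers lay below 0 and 2 above. The summed smooth muscle markers Acta2, Myh11, Des, Tagln and Cnn1 were 4064 to 7168 CPM in the DXM group and 2531 to 4819 CPM elsewhere, with DXM 3 highest. The summed leukocyte markers Ptprc, Cd3e, Cd79a, Lyz2, Itgam and Cd68 were 264 to 576 CPM in the DXM group and 52.4 to 344 CPM elsewhere, again with DXM 3 highest. Lyz2 alone, a gene of macrophages and other myeloid cells, made up 448 of the 576 CPM in DXM 3. The T cell gene Cd3e was 0.675 to 3.14 CPM in the DXM and 2.43 to 4.11 CPM in the model libraries, the B cell gene Cd79a was 34.2 to 41.4 against 37.3 to 41.6 CPM, and 2 of the 6 markers lay below 0 in fold change of DXM over model. Skeletal muscle markers (Acta1, Ckm, Myh4 and Tnnt3) summed to 17.5 to 53.1 CPM in all libraries. The part of these markers in the values of the 9 genes was not tested. Fat cell markers (Adipoq, Plin1, Lep, Cfd, Fabp4 and Retn) summed to 9.04 to 96.8 CPM in 11 libraries and to 200 CPM in model 3, the library with the highest Angptl4, where Adipoq was 11.6 CPM. Pparg and Angptl4 are also genes of fat cells, and the part of these cells in model 3 was not tested.

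The first comparison asked how DSS colitis changed these genes. None of the 9 passed the test between the model and control groups. By log2 fold change of model over control, Ppara was -1.50 ± 1.03, Pdk4 -0.90 ± 0.99, Pparg -0.52 ± 0.57, Cpt1a -0.46 ± 0.47, Acadm -0.30 ± 0.29 and Slc16a1 -0.21 ± 0.32 (± SE). Acads at 0.11 ± 0.46, Acaa2 at 0.06 ± 0.44 and Angptl4 at 0.47 ± 0.90 lay on the other side of 0. Without model 3, all 9 were negative, with Acads at -0.21, Acaa2 at -0.44, Angptl4 at -1.44 and Pdk4 at -1.97. Among the 9 libraries with Hoxb13 at 5 CPM or more all 9 were negative too, with Pdk4 at -1.72, Angptl4 at -1.34, Ppara at -1.04, Pparg at -0.94, Cpt1a at -0.55, Slc16a1 at -0.49, Acadm at -0.48, Acaa2 at -0.29 and Acads at -0.03. At an unadjusted p under 0.05 in edgeR's test, 0 of the 9 were called, where 9.62% of all genes tested were. The edgeR adjusted p of the 9 was 0.66 or more, and 0 of the 16904 genes (0%) passed an adjusted p of 0.05 in edgeR, where 1626 had an unadjusted p under 0.05. DESeq2, run on every gene with any count, called 46 of 29929 genes by adjusted p. The median of the 9 was -0.30, and that of all genes tested was 0.01. Of the 7 colon epithelial markers, 6 were lower and 1 higher in the model group, with a median of -0.33. All 5 mature colonocyte markers were lower, 3 of them at an unadjusted p under 0.05 in edgeR's test, where 4.51% of all genes were called lower. The part of these markers in the values of the 9 genes was not tested here. With the model, Rhy and DXM groups together against control, 2 of 9 had an unadjusted p under 0.05, Ppara at -2.10 ± 0.76 (edgeR adjusted p = 0.203) and Cpt1a at -0.83 ± 0.36 (adjusted p = 0.275), where 9.19% of all genes were called lower. Of all genes, 17% were called in either direction in this fit. This pooled contrast joins DSS with rhynchophylline and dexamethasone, whose parts cannot be told apart in it. By single group over control, Ppara was -1.50 in model, -1.65 in Rhy and -3.16 in DXM. Cpt1a was -0.46, -0.58 and -1.46 in the same order. The count of 2 was 0 without control 2 (10.2% of all genes called) or without control 3 (21.3%), and 1 after summing model 1 with model 2 (13.8%) or without any single one of model 1, model 2, Rhy 2, Rhy 3, DXM 2 and DXM 3 (13.7% to 15.0%). It was 4 without control 1 (18.7%) or without model 3 (15.8%), and 5 without Rhy 1 (21.2%). Among the 9 libraries with Hoxb13 at 5 CPM or more it was 6, where 24.9% of all genes were called and 350 passed an adjusted p of 0.05 in edgeR.

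The next comparison asked whether Rhy altered the genes in DSS colitis. The differences of Rhy from model were small beside their errors, from -0.20 ± 0.99 for Pdk4 to 0.20 ± 0.29 for Acadm, with Ppara at -0.16 ± 1.02, Pparg at -0.14 ± 0.57 and Cpt1a at -0.13 ± 0.47. At an unadjusted p under 0.05, 0 of the 9 were called by edgeR, where 3.72% of all genes were, and every adjusted p of the 9 was 0.9997. The 95% intervals were wide, from -2.39 to 2.08 for Ppara and from -1.15 to 0.89 for Cpt1a, so differences of either sign were within them. The means also rested on 2 libraries that stood apart. Without Rhy 1, all 9 differences were negative, with Pdk4 at -2.45 (edgeR adjusted p = 0.772), Ppara at -1.72 and Cpt1a at -0.85. Without model 3, all 9 were positive, with Angptl4 at 1.74 and Pdk4 at 0.85. Among the 9 libraries with Hoxb13 at 5 CPM or more, Pdk4 was -1.40, Cpt1a -0.62 and Angptl4 1.01. There 0 of the 9 had an unadjusted p under 0.05, where 8.42% of all genes did. Between Rhy and control, 0 of the 9 had an unadjusted p under 0.05, where 11.6% of all genes did, and without Rhy 1 this count was 4, where 16.3% of all genes did: Ppara, Pparg, Cpt1a and Pdk4 were lower than in control. Among libraries with Hoxb13 at 5 CPM or more it was 3, where 21.5% of all genes did.

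The comparison of DXM with model asked the same of dexamethasone, and it placed all 9 genes lower in the DXM group. By log2 fold change of DXM over model, Pdk4 was -1.86 ± 1.03, Ppara -1.67 ± 1.07, Angptl4 -1.65 ± 0.93, Pparg -1.04 ± 0.57 and Cpt1a -1.001 ± 0.47. Acads was -0.91 ± 0.47, Slc16a1 -0.66 ± 0.32, Acaa2 -0.38 ± 0.44 and Acadm -0.34 ± 0.29. For 6 of the 9, Ppara, Pparg, Cpt1a, Acads, Pdk4 and Slc16a1, no DXM library reached the lowest model library, as was the case for 12.2% of all genes tested. Model 1 and model 2, which were nearly the same, each counted as a library in this. None of the 9 genes passed the test. At an unadjusted p under 0.05, 0 of the 9 were called, where 2.8% of all genes were called lower, and the smallest p, that of Cpt1a, was 0.0557 (edgeR, adjusted p = 0.655). The median of the 9 was -1.001, and that of all genes tested was -0.01, of which 51.5% lay below 0. In either direction, 7.69% of all genes were called in this fit. The count of 0 of the 9 depended on the fit. It was 6 in edgeR with every gene that had any count, where 5.86% of those genes were called, 4 in edgeR on these groups alone (15.4%) and 1 with model 1 and model 2 as 1 library (4.24%). It was 3 without DXM 1 (8.17%) or without Rhy 1 (9.74%), and 1 without control 1 (10.6%), model 1 (4.47%) or Rhy 3 (7.95%). Among libraries with Hoxb13 at 5 CPM or more, where model 3 is left out, Cpt1a was -0.78 and Ppara -1.51, while Pdk4 was -0.82, Acaa2 0.09 and Angptl4 0.22. Of the 7 colon epithelial markers, 6 were lower and 1 higher in DXM than in model, with a median of -0.23 over all 12 libraries. Their part in the values of the 9 genes was not tested.

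Between DXM and control, 5 of the 9 genes had an unadjusted p under 0.05 in edgeR's test, all lower in DXM, where 10.2% of all genes tested were called lower. By log2 fold change of DXM over control, Ppara was -3.16 ± 1.11, Pdk4 -2.76 ± 1.06, Pparg -1.55 ± 0.58, Cpt1a -1.46 ± 0.48 and Slc16a1 -0.87 ± 0.33. The smallest adjusted p of the 9 was 0.159, for Cpt1a, so none passed the adjustment in edgeR. DESeq2 gave Cpt1a -1.50 with an adjusted p of 0.0339, and called 1059 of the 29929 genes it tested by adjusted p in this comparison. Pparg, Cpt1a and Slc16a1 did not overlap between the groups, as was the case for 8.89% of all genes in this direction, while control 1 overlapped with DXM for Ppara and Pdk4. Acads at -0.80 ± 0.47, Acadm at -0.64 ± 0.29, Angptl4 at -1.18 ± 0.92 and Acaa2 at -0.31 ± 0.44 had an unadjusted p over 0.05. In either direction, 18.9% of all genes were called in this fit. The count of 5 was 2 without DXM 3 (9.48% of all genes called) or without control 2 (11.9%), 3 without control 3 (20.2%), and 6 among the libraries with Hoxb13 at 5 CPM or more (23.6%). The colon epithelial markers moved the same way, with a sum of 8445 to 10345 CPM in the DXM and 11448 to 13842 CPM in the control libraries. Of these 7 markers 6 were lower in DXM, 4 of them at an unadjusted p under 0.05 in edgeR's test, and their part in the values of the 9 genes was not tested. The comparisons with DXM share its 3 libraries, so they do not stand apart from each other. This contrast joins DSS and dexamethasone, whose parts cannot be told apart in it.

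**Figure D4:**
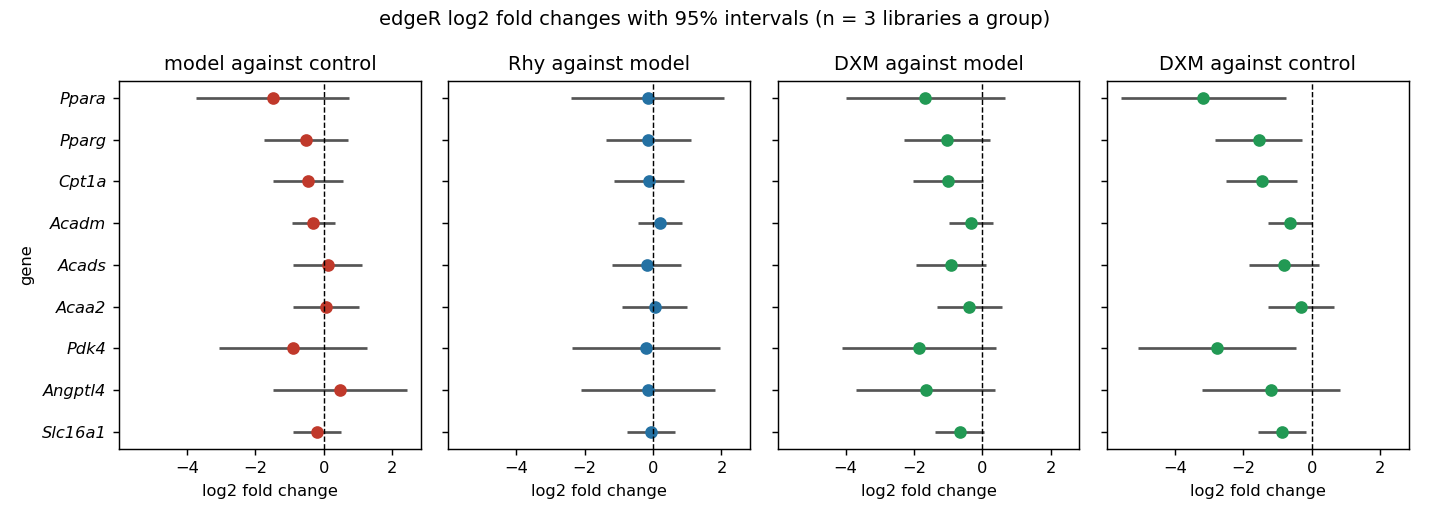
Log2 fold change (edgeR) of the 9 genes in 4 comparisons, with points for estimates and bars for 95% intervals (n = 3 libraries a group). All intervals cross 0 for model against control, Rhy against model and DXM against model, and for DXM against control those of Ppara, Pparg, Cpt1a, Pdk4 and Slc16a1 do not.

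The wider route was followed in 84 further genes in 9 lists, of which 79 were tested. Fabp1, Cpt1b, Fgf21, Cyp4a14 and Ucp3 did not pass the filter. Between DXM and model, 61 of these 79 were lower and 18 higher, with a median log2 fold change of -0.33 against -0.01 for all genes. The groups did not overlap for 19 genes that were lower and 2 that were higher, as was the case for 12.2% and 10.4% of all genes. Here too model 1 and model 2 each counted as a library. At an unadjusted p under 0.05, 3 of the 79 were lower and 0 higher, where 2.8% of all genes were called lower. They included Ppard, the third PPAR receptor, at -0.64 ± 0.18 (edgeR adjusted p = 0.622), and Pex11a, which acts in peroxisome division, at -0.92 ± 0.39 (adjusted p = 0.638). Acaca, which makes malonyl-CoA, completed them at -0.46 ± 0.18 (edgeR adjusted p = 0.637). Ppard measured 162, 172 and 154 CPM in the control, 148, 140 and 151 CPM in the model, 152, 124 and 94.9 CPM in the Rhy, and 103, 90.4 and 86.9 CPM in the DXM libraries. Its DXM libraries lay below all control and model libraries.

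By list, the median of DXM over model was -0.89 for the 8 tested other PPAR targets, all below 0, and -0.56 for the 10 genes of peroxisomal beta-oxidation. It was -0.42 for the carnitine shuttle, -0.34 for nuclear receptors and coactivators, and -0.33 for both the 13 genes of mitochondrial beta-oxidation and the 5 ketone body enzymes. Uptake and activation of fatty acids at -0.15, control of pyruvate dehydrogenase at -0.04 and monocarboxylate transport at -0.03 were nearest to 0. In mitochondrial beta-oxidation, Hadh was -0.65 ± 0.39, and in uptake the transporter Slc27a4 was -1.03 ± 0.53. Pdp1, the phosphatase that opposes the Pdk kinases, was 0.65 ± 0.38, and Bsg, the chaperone of MCT1, was -0.34 ± 0.26. Cyp4a10, a microsomal PPAR alpha target, had 1, 0 and 1 counts in the DXM libraries, 7, 3 and 21 in the model, 7, 0 and 0 in the Rhy, and 0, 45 and 23 in the control libraries.

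**Figure D5:**
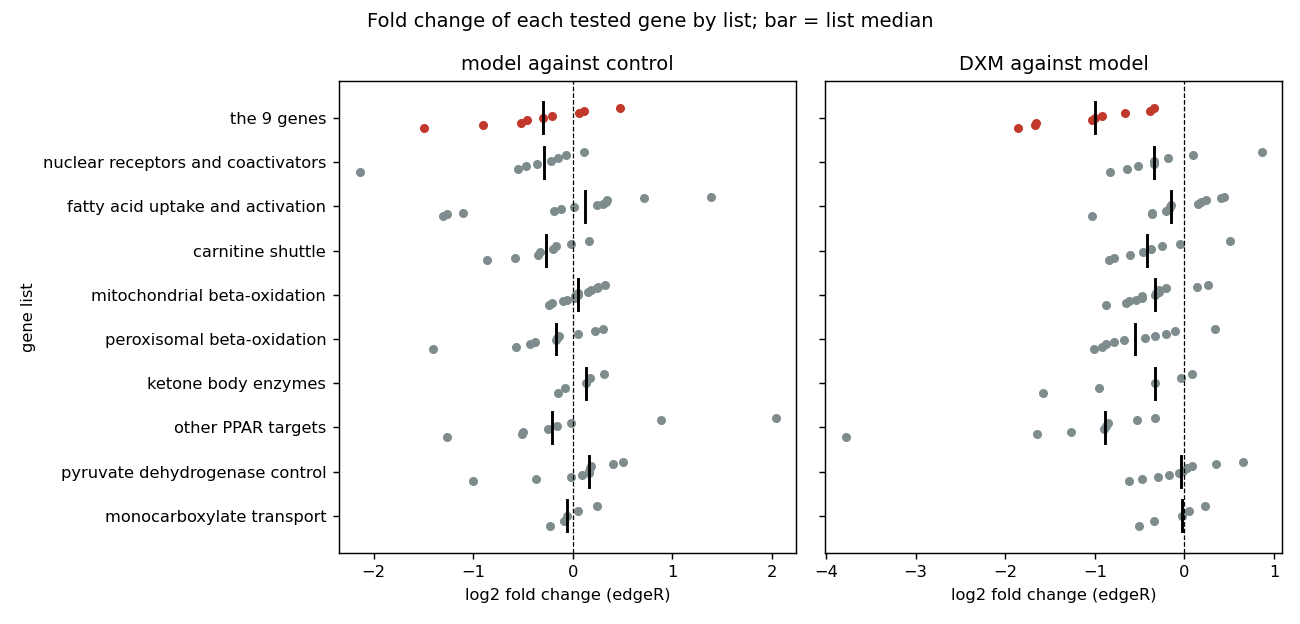
Log2 fold change (edgeR) of each tested gene by list, for model against control (left) and DXM against model (right), with bars for list medians. For DXM against model, the median of the 9 genes is -1.001 and those of the other lists run from -0.89 to -0.03.

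Between model and control, 3 of the 79 genes were lower and 1 higher at an unadjusted p under 0.05, where 4.51% of all genes were called lower and 5.11% higher. Acsl3, which activates long-chain fatty acids, was -1.10 ± 0.34 (edgeR adjusted p = 0.459), Pdk2, the sister kinase of Pdk4, was -1.01 ± 0.36 (adjusted p = 0.479), and Hnf4a, a receptor of the mature gut epithelium, was -0.55 ± 0.21 (adjusted p = 0.488). Acsm3, which activates butyrate and medium-chain fatty acids, was 1.39 ± 0.50 (adjusted p = 0.479), the opposite direction. The model and control groups did not overlap for 5 of the 79 genes that were lower and 4 that were higher, where 17% of all genes did not overlap in either direction. Model 1 and model 2, which were nearly the same, each counted as a library in these calls and counts. With the 2 summed into 1 library, 4.99% of all genes were called in either direction in place of 9.62%. Further genes had larger p, with Creb3l3, a partner of PPAR alpha, at -2.14 ± 1.04, the carnitine transporter Slc22a5 at -0.86 ± 0.44 and the peroxisomal thiolase Acaa1b at -1.41 ± 0.95. Crat at -0.35 ± 0.23, Crot at -0.43 ± 0.24 and the lipid droplet gene Plin2 at -0.50 ± 0.35 were also below 0. Decr1 at 0.32 ± 0.27, Acadsb at 0.19 ± 0.19, Acat1 at 0.32 ± 0.32, Bdh1 at 0.17 ± 0.23, Mpc1 at 0.41 ± 0.30 and Slc5a8, another butyrate carrier, at 0.24 ± 0.34 were above 0. Bsg was -0.23 ± 0.26. Plin5 averaged 0.550 CPM in the model and 0.124 CPM in the control group. Between Rhy and model, 39 of the 79 were higher and 40 lower, where 51.7% of all genes were lower, and 1, Slc27a1, had an unadjusted p under 0.05. Between DXM and control, 18 were lower and 4 higher at that level, against 10.2% and 8.68% of all genes. They included Slc22a5 at -1.65 and the carnitine carrier Slc25a20 at -1.18. Slc25a20 and Slc27a1 were named for their values.

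The genes whose log2 CPM followed each of the 9 most closely over the 12 libraries included other genes of fat metabolism. Acads was closest to Tmem98 (r = 0.988) and also near Hadh (0.973), and Acaa2 was closest to Acot2 (0.970), a mitochondrial acyl-CoA thioesterase, Aamdc (0.944) and Ddrgk1 (0.930). Pparg was closest to Prpsap1 (0.993), Elovl6 (0.987), which elongates fatty acids, and H2-T3 (0.982), and Cpt1a to Atg4d (0.986), Pparg (0.982) and Elovl6 (0.982). Ppara was nearest to Rab43 (0.978), Cyp2d26 (0.969) and Tiam2 (0.966), and Pdk4 to Kifc3 (0.988), Gramd3 (0.979) and Entpd5 (0.973). Acadm was nearest to Ugdh (0.985), Vdac3 (0.977) and D1Ertd622e (0.973), and Slc16a1 to Tubal3 (0.968), Alpi (0.967) and a gene the table lists as 5-Sep (0.962). Angptl4 was near Cul3 (0.918) and Pgrmc1 (0.906). Likeness of this kind was common, since an r above 0.8 was reached with Cpt1a by 5.66% and with Angptl4 by 1.09% of the genes tested. These values all rest on the same 12 libraries.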

How the data were processed

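Bulk RNA-Seq was available for 12 mouse colon libraries, which were assigned by the labelled treatment to 4 groups of 3 (control, model, Rhy, DXM). The authors deposited counts per gene without normalization and FPKM values made from the same counts: 100% of 262985 FPKM values above 0 were recovered from the counts, DESeq2 size factors and gene length, within 0.1%. The submitters' processing notes name HISAT2 2.0.5, featureCounts 1.5.0-p3, DESeq2 1.16.1 and the mm10 build. A strand setting is not given in the sources used here, so genes that overlap others are uncertain. The RNA-Seq methods of the paper do not mention the DXM group.

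The main test used edgeR 4.0.16 in R 4.3.3 (scaling by TMM, filterByExpr with a minimum count of 10, which kept 16904 of 54532 genes, glmQLFit and glmQLFTest on group means of all 12 libraries in 1 fit, two-sided, Benjamini-Hochberg adjustment). The standard error is the log2 fold change divided by the square root of F. Log2 CPM carried a prior count of 2. The test was tested on simulated counts. DESeq2 1.42.0 and limma 3.58.1 on FPKM served as alternatives, with other scalings, filters, sample sets and single libraries left out. Totals of 14346478 to 17749716 counts set the precision, and groups of 3 limit it further. Named genes were the 9 genes, from each list the 2 with the smallest p for model against control and the 1 for DXM against model, and the 3 genes most like each of the 9. Some genes that this rule names are not reported here. The 9 genes, the lists and the Hoxb13 cutoff were chosen with earlier results of these data known. The lists were written from general knowledge, and 5 of their 84 genes did not pass the filter.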

Additional observations from a re-analysis of the deposited data

How the results depend on the processing

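Members here means the 9 genes of fatty acid oxidation and ketogenesis. Outside the fits that left out 1 library in turn, 867 log2 fold changes of 80 results were recomputed. Some of these fits used fewer libraries. They had only the groups compared, model 1 and model 2 summed, or control 3, model 3 and Rhy 1 left out for low Hoxb13. Of the 867 values, 838 kept their direction and their side of the threshold, 28 changed sign and 1 passed the threshold. That one was Cpt1a in DXM against control, at -1.50 with DESeq2. Counts of genes with an adjusted p under 0.05 were 0 in each of the 6 comparisons, out of 16904 genes. With DESeq2, which tested 29929 genes, they became 46, 32, 1059 and 748 for model, Rhy, DXM and the DSS groups against control. With it they also became 5 for Rhy against model and 51 for DXM against model. With every gene of any count they became 1, 13, 1 and 44 for model, DXM, Rhy and the DSS groups against control. With only the groups compared they became 1 for model against control and 2 for DXM against model, and limma on log2(FPKM + 0.1) gave 2 for Rhy against model and 2 for DXM against model. Among libraries with Hoxb13 at 5 CPM or more, an alternative chosen after seeing the data, they became 2 for DXM against model and 350 for the DSS groups.

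Members with an unadjusted p under 0.05 in DXM against model numbered 0 in the report, where 7.69% of all genes were called. They numbered 6 with every gene of any count (5.86% of all genes called) and 4 with only the groups compared (15.4%). They numbered 2 with DESeq2 (5.54%), 2 with limma on log2(FPKM + 1) (7.94%) and 2 on log2(FPKM + 0.1) (7.44%). With model 1 and model 2 as 1 library they numbered 1 (4.24%). In Rhy against control, 0 (11.6%) became 1 with every gene of any count (7.87%) and 1 with the Hoxb13 term (13.7%). Among libraries with Hoxb13 at 5 CPM or more it became 3 (21.5%). In the DSS groups against control, 2 (17%) became 4 with every gene of any count (11.8%) and 4 with the Hoxb13 term (18.8%). Among libraries with Hoxb13 at 5 CPM or more it became 6 (24.9%). It became 1 with limma on log2(FPKM + 1) (16.3%), on log2(FPKM + 0.1) (16.2%) and with model 1 and model 2 as 1 library (13.8%). The cause of these shifts was not tested.

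The values that changed sign belong to Acaa2, Angptl4 and Acads, all within their standard errors of 0 in the report except Angptl4 in DXM against model. In model against control, Acaa2 was -0.0461 and -0.0468 with limma on log2(FPKM + 1) and log2(FPKM + 0.1), -0.0396 with the Hoxb13 term and -0.29 at Hoxb13 of 5 CPM or more. Angptl4 was -0.0664 with limma on log2(FPKM + 0.1), -0.30 with the Hoxb13 term and -1.34 at Hoxb13 of 5 CPM or more and Acads was -0.0299 there. In Rhy against model, Acaa2 was -0.14 with model 1 and model 2 as 1 library and -0.0653 at Hoxb13 of 5 CPM or more, and Angptl4 was 0.18 and 0.34 with the limma fits, 0.29 with the Hoxb13 term and 1.01 at Hoxb13 of 5 CPM or more. In DXM against model, Acaa2 was 0.0352 with the Hoxb13 term and 0.0915 at Hoxb13 of 5 CPM or more, where Angptl4 was 0.22. In Rhy against control, Acaa2 was -0.0284 and -0.0293 with the limma fits, -0.0351 with the Hoxb13 term and -0.35 at Hoxb13 of 5 CPM or more, and Angptl4 was -0.0142 and -0.33 with the last 2. In the DSS groups against control, Acaa2 was 0.0057 with upper-quartile scaling and 0.0155 with model 1 and model 2 as 1 library, where Angptl4 was 0.0151.

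With 1 library left out in turn, 907 of 960 values kept their call and 53 changed sign. Members with an unadjusted p under 0.05 ranged from 0 to 1 for model against control and for Rhy against model, 0 to 3 for DXM against model, 0 to 4 for Rhy against control, 2 to 7 for DXM against control and 0 to 5 for the DSS groups against control. For model against control the 1 came without control 1 (9.73% of all genes called). Without Rhy 1 came the highest counts for Rhy against model (6.13%), Rhy against control (16.3%) and the DSS groups (21.2%). For DXM against model, 3 came without DXM 1 (8.17%) or Rhy 1 (9.74%). For DXM against control, 7 came without control 1 (23.5%) or Rhy 1 (20.9%), and 2 without control 2 (11.9%) or DXM 3 (9.48%). Genes with an adjusted p under 0.05 ranged from 0 to 1 for model against control, for Rhy against model and for Rhy against control, 0 to 4 for DXM against control and 0 to 27 for the DSS groups, the last without DXM 1. In Rhy against model, log2 fold changes ranged from -1.72 to 0.36 for Ppara, -0.95 to 0.24 for Pparg, -0.85 to 0.14 for Cpt1a, -0.88 to 0.12 for Acads, -0.55 to 0.53 for Acaa2, -0.16 to 0.41 for Acadm, -2.45 to 0.85 for Pdk4, -0.89 to 1.74 for Angptl4 and -0.31 to 0.17 for Slc16a1. In model against control they ranged from -0.44 to 0.26 for Acaa2, -0.21 to 0.30 for Acads, -1.44 to 0.97 for Angptl4 and -0.0401 to 0.27 for Bdh1. In Rhy against control they ranged from -0.48 to 0.38 for Acaa2, -0.46 to 0.0728 for Acadm, -0.76 to 0.21 for Acads and -0.41 to 0.82 for Angptl4. In DXM against model they ranged from -0.71 to 0.0929 for Acaa2 and -2.13 to 0.22 for Angptl4, and in the DSS groups against control from -0.25 to 0.0807 for Acaa2 and -0.79 to 0.37 for Angptl4.

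The replicate block used the numbers 1 to 3 that the labels repeat in each group. Deviations from group means correlated at -0.31 to 0.363 in 18 pairs with the same number and at -0.406 to 0.401 in 36 pairs with different numbers. The ranges overlap and give no sign that the numbers pair the libraries, but with 3 libraries a group they cannot settle it. With the block, 0 genes had an adjusted p under 0.05 in each comparison. The members with an unadjusted p under 0.05 stayed at 0, 0, 0, 0, 5 and 2. Of all genes, 10.8%, 3.7%, 7.36%, 12.4%, 18.9% and 17.6% were called in the same order. The values of Rhy against model that changed sign with the block were Acaa2 at -0.0083 and Angptl4 at 0.13. Groups of 3 libraries limit these results, and Ppara was down to 8 counts in 1 of them. The fit of only the groups compared is the main fit for the DSS groups, so it gave no further value there.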
